A study of Mus musculus with 14 samples.

Results

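The genes described here encode matricellular proteins, which are secreted into the extracellular matrix and act there on cells rather than as scaffold, together with matrix proteins of activated fibroblasts. They were chosen by symbol, with earlier results of these data known: Tnc, Postn, Thbs1, Thbs2, Thbs4, Spp1, Sparc, Fn1, Cthrc1 and Lrrc15. A gene was measured where the array annotation gave its symbol alone to a probe set, which held for 9 of the 10 genes, each with 1 probe set, among 19938 genes tested. Spp1, which encodes osteopontin, had no such probe set, so it has no value here.

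The RNA came from the plantaris, a calf muscle, of male C57BL/6J mice aged 25 months. Both synergists, the gastrocnemius and the soleus, had been removed surgically so that the plantaris carried their load. Muscles were taken on days 0, 1, 3, 5, 7, 10 and 14 of overload, and each day was read on 2 Affymetrix Mouse Gene 1.0 ST arrays, one for a pool of left and one for a pool of right muscles of 6 animals. Day 0, labelled as healthy muscle, was the only control: no sham-operated group is named in the labels, so loading and surgery cannot be told apart, and muscle of young mice was not analysed here.

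Matricellular proteins bind integrins, syndecans and other receptors, growth factors and collagen, and are made in quantity during development, wound healing and mechanical loading. In resting adult muscle, tenascin-C is known to lie mainly at the myotendinous junction and tendon. After injury or overload, matrix proteins are made largely by interstitial fibroblasts, with contributions from macrophages, platelets and muscle fibres. Cthrc1 and Lrrc15 are used as markers of activated, matrix-producing fibroblasts.

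All values are log2 signals, so a difference of 1 is a doubling, and a level of one gene cannot be set against that of another. Each difference is given with its standard error from a limma fit to all 14 arrays, and "called" means a Benjamini-Hochberg adjusted p under 0.05 over all genes tested. Both pools of a day appear to come from the same animals. The p-values therefore measure the spread between sides and arrays, not between animals, and a difference between days cannot be told apart from one between the animals of those days. In whole muscle, more cells of a type and more RNA per cell cannot be told apart either.

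On any one day the correlation across genes between the sides was 0.994 to 0.997. The 10 muscle fibre markers, from Acta1 to Atp2a1, had mean log2 signals of 13.02 to 13.93 on every array, so the defining genes of the labelled tissue were strongly expressed. Their median difference from day 0 was lowest on day 5 at -0.63, when 9 of the 10 were called lower. The highest signal on an array lay between 14.65 and 14.79. Sparc, at up to 14.19, came closest to it among the 9 genes, and no saturation call was available.

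All 9 measured genes rose above day 0 on days 3, 5, 7, 10 and 14, each at least 2-fold, and on each of those days both arrays of every gene lay above both arrays of day 0. Day 1 was mixed. Tnc, Postn, Thbs1, Thbs4, Fn1 and Cthrc1 rose, Thbs2 fell, and Sparc and Lrrc15 were not called. Tnc, Thbs1, Fn1 and Cthrc1 rose at least 2-fold on that day.

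Against this stands a background of widespread change. Of all genes tested, 22.3% were called higher on day 1, 24.1% on day 3, 26.4% on day 5, 26.6% on day 7, 25.9% on day 10 and 22.9% on day 14. Those called lower made up 22.6%, 26.6%, 33.7%, 36.3%, 34.3% and 30.5% on the same days. The median difference of the 9 genes from day 0 was 0.99 on day 1, 2.01 on day 3, 2.89 on day 5, 3.04 on day 7, 3.10 on day 10 and 2.81 on day 14. Over all genes the median lay between -0.14 and 0.04. The F test over the 7 days called all 9 genes, but also 79.5% of all genes, so it says little about them. All 6 comparisons with day 0 share the same 2 control arrays and are not independent of each other.

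**Figure D1:**
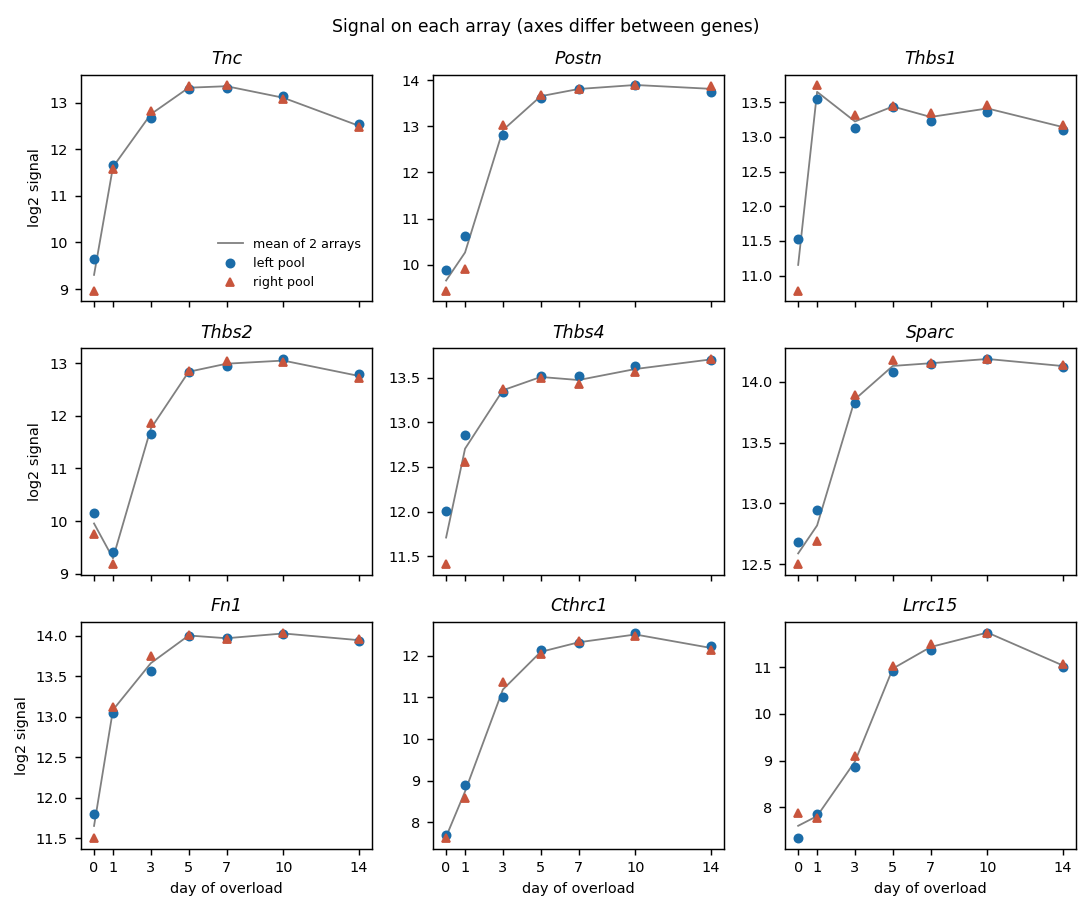
Log2 signal (vertical axes, which differ between genes) of each measured gene against day of overload; circles are left pools, triangles right pools and lines the mean of the 2 arrays. From day 3 both arrays of each gene lie above both of day 0, while on day 1 Thbs2 lies below and Lrrc15 overlaps.

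RefSeq promoter windows (assembly GRCm38.p6, the 250 bases before an annotated start, read in the direction of the gene) were at hand for 7 of the 10 genes, 6 of them measured. Those of Tnc, Postn, Thbs2 and Lrrc15 are shown because these genes followed different courses on days 1 to 5, as described below. The Tnc window is chr4:64046937-64047186 on the minus strand, Postn chr3:54360857-54361106 on the plus strand, Thbs2 chr17:14694263-14694512 on the minus strand and Lrrc15 chr16:30283255-30283504 on the minus strand. Capitals mark TATAAA, the core of a TATA box, or TGACTCA, the site bound by AP-1 (Fos and Jun proteins), each searched on both strands.
Tnc: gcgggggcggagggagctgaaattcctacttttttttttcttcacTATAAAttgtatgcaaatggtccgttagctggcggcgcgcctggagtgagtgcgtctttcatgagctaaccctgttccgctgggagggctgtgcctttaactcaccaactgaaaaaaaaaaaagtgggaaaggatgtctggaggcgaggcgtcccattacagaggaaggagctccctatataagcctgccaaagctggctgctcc
Postn: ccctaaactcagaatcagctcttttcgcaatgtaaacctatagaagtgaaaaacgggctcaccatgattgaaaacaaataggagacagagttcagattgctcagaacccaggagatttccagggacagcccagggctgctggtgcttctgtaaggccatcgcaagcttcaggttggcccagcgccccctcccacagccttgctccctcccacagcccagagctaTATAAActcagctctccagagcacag
Thbs2: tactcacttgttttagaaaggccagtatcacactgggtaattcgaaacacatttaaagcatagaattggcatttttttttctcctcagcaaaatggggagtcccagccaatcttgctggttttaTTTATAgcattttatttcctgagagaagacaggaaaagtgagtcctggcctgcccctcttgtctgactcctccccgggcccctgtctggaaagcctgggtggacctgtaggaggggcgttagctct
Lrrc15: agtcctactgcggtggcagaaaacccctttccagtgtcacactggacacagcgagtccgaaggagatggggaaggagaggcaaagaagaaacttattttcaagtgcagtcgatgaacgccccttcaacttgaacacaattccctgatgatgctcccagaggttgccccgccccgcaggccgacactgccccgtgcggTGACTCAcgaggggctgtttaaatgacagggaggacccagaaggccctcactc
Postn and Tnc each have 2 windows in the table, for different annotated starts, and 1 of each is printed. In the printed Postn window TATAAA lay 26 to 21 bases before the start, and the other Postn window held no match. In the printed Tnc window it lay 205 to 200 bases before the start, and in the other, which overlaps it, 126 to 121 bases before. Only these exact letters were searched, so near variants of a TATA box are not marked. In Thbs2 the match lay on the opposite strand, 126 to 121 bases before the start. Lrrc15 held TGACTCA 53 to 47 bases before its start. Of 32851 windows of this length, 12.4% held TATAAA and 4.46% held TGACTCA. The site of TEAD factors, GGAATG, was found in 12.6% of windows and, among the measured genes, only in Thbs4, as a pair of overlapping matches 197 to 187 bases before the start. The RUNX site TGTGGT was found in 14.1% of windows and in none of the measured genes' windows. A match is a description of the sequence and not evidence that a factor binds there. Thbs1, Fn1 and Cthrc1 had no entry.

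Tnc encodes tenascin-C, a large hexameric glycoprotein that modulates adhesion to fibronectin. Its signal at day 0 was 9.64 in the left and 8.97 in the right pool (probe set 10513739). It stood at 11.66 and 11.58 on day 1, 12.67 and 12.83 on day 3, and 13.29 and 13.35 on day 5. On day 7 the pools read 13.32 and 13.38, on day 10 13.14 and 13.07, and on day 14 12.53 and 12.47. Every later array exceeded both day 0 arrays by more than their own gap. Tnc rose by 2.32 ± 0.16 on day 1 (4.98-fold, adjusted p = 1.9e-07) and by 4.05 ± 0.16 on day 7 (16.5-fold, adjusted p = 1.4e-09), the 11th largest rise of all genes that day. Days 5, 7 and 10 could not be separated. By day 14 the signal had fallen by 0.85 ± 0.16 from day 7 (adjusted p = 0.0029) and by 0.82 ± 0.16 from day 5 (adjusted p = 0.0021). The fall of 0.60 ± 0.16 from day 10 (adjusted p = 0.035) did not hold when any one array of either day was left out (adjusted p = 0.114 to 0.151), nor when all probe sets were tested (adjusted p = 0.089).

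Postn encodes periostin, which links collagen, fibronectin and tenascin-C and supports collagen crosslinking. The day 0 pools read 9.87 on the left and 9.43 on the right, and the day 1 pools 10.63 and 9.90 (probe set 10492021). The left day 1 array lay well above both day 0 arrays, and the right one only just above the left pool of day 0. On day 3 the signals were 12.82 and 13.02, on day 5 13.63 and 13.69, on day 7 13.81 and 13.82, on day 10 13.91 and 13.90, and on day 14 13.75 and 13.89. Postn thus stayed on a plateau from day 5, within which no pair of days was called. The day 1 rise of 0.61 ± 0.19 (1.52-fold, adjusted p = 0.020) rested on single arrays. It was 0.24 without the left pool of day 1 (adjusted p = 0.23), 0.39 without the right pool of day 0 (adjusted p = 0.18), and at most 0.97 with another array left out. The step from day 1 to day 3 was 2.66 ± 0.19 (adjusted p = 8.6e-07), and day 10 stood 4.25 ± 0.19 above day 0 (19.0-fold, adjusted p = 4.2e-09). On day 14 Postn was the 7th largest rise of all genes. The step of 0.74 ± 0.19 from day 3 to day 5 (adjusted p = 0.040) was not called with any one array of those days left out (adjusted p = 0.099 to 0.213).

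Sparc encodes osteonectin, a collagen-binding protein needed for collagen fibril assembly. Its signal was already high at day 0, at 12.68 and 12.50 in the left and right pools, and read 12.95 and 12.69 on day 1 (probe set 10386058). It reached 13.83 and 13.89 on day 3, 14.09 and 14.18 on day 5, 14.15 and 14.16 on day 7, 14.19 and 14.19 on day 10, and 14.12 and 14.14 on day 14. Both day 1 arrays lay above both of day 0, the lower one by less than the gap between the day 0 arrays. The day 1 difference of 0.23 ± 0.09 was not called (adjusted p = 0.060). It was called with 25% of the genes of lowest signal left out (adjusted p = 0.041) and after quantile normalization (adjusted p = 0.037). Without the left pool of day 0 it was 0.32 (adjusted p = 0.032) and without the right pool of day 1 0.36 (adjusted p = 0.0099). Sparc rose by 1.27 ± 0.09 on day 3 (2.41-fold, adjusted p = 1.9e-07) and by 1.60 ± 0.09 on day 10 (3.03-fold, adjusted p = 2.9e-08), the smallest peak rise of the 9 genes.

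Fn1 encodes fibronectin, the adhesive glycoprotein of provisional matrix that integrin α5β1 binds. The probe set (10355403) was read as a whole and does not separate the splice forms of fibronectin. Day 0 signals were 11.80 on the left and 11.50 on the right, followed by 13.05 and 13.12 on day 1 and 13.57 and 13.76 on day 3. Thereafter the pools read 13.99 and 14.02 on day 5, 13.98 and 13.96 on day 7, 14.02 and 14.04 on day 10, and 13.94 and 13.96 on day 14. Fn1 was thus well above day 0 within a day and level from day 5. It rose by 1.43 ± 0.10 on day 1 (2.70-fold, adjusted p = 1.8e-07) and by 2.38 ± 0.10 on day 10 (5.20-fold, adjusted p = 2.1e-09).

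The thrombospondins are secreted calcium-binding glycoproteins. Thrombospondin-1 and thrombospondin-2 form trimers and inhibit angiogenesis through CD36 and CD47, and thrombospondin-1 can activate latent TGF-β. Thrombospondin-4 forms pentamers and is found in tendon and at the muscle attachment. The 3 measured genes took different courses.

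Thbs1 was highest on day 1. Its pools read 11.52 on the left and 10.78 on the right at day 0, and 13.55 and 13.75 on day 1 (probe set 10474700). Later readings were 13.13 and 13.31 on day 3, 13.43 and 13.44 on day 5, 13.23 and 13.34 on day 7, 13.36 and 13.46 on day 10, and 13.10 and 13.18 on day 14. All later arrays lay above 13, well clear of both day 0 arrays. The rise on day 1 was 2.50 ± 0.18 (5.64-fold, adjusted p = 2.5e-07), and day 14 was still 1.99 ± 0.18 above day 0 (3.97-fold, adjusted p = 1.7e-06). Of the 21 pairs of days, only the 6 with day 0 and the pair of days 1 and 14 were called. That fall of 0.51 ± 0.18 from day 1 to day 14 (adjusted p = 0.025) was lost without the right pool of day 1 (adjusted p = 0.15), the left pool of day 14 (adjusted p = 0.091) or the right pool of day 14 (adjusted p = 0.065).

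Thbs2 moved the other way first. From 10.16 on the left and 9.75 on the right at day 0, it went to 9.41 and 9.17 on day 1 (probe set 10447951). It then stood at 11.66 and 11.85 on day 3, 12.83 and 12.84 on day 5, 12.94 and 13.04 on day 7, 13.09 and 13.02 on day 10, and 12.79 and 12.73 on day 14. Day 1 lay below both day 0 arrays and day 3 above both, with no overlap. Thbs2 fell by 0.66 ± 0.12 on day 1 (1.58-fold lower, adjusted p = 0.00074), the only called fall among the 9 genes in any comparison with day 0. From day 1 to day 3 it rose by 2.47 ± 0.12 (adjusted p = 6.7e-08) and from day 3 to day 5 by another 1.08 ± 0.12 (adjusted p = 0.00029). On day 10 it was 3.10 ± 0.12 above day 0 (8.56-fold, adjusted p = 1.8e-09). Its change from day 0 was 3.16 below that of Thbs1 on day 1 and 0.84 above it on day 10; the difference between the genes was not tested.

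Thbs4 rose by day 3 and stayed high. The pools read 12.01 and 11.41 at day 0, 12.86 and 12.55 on day 1, and 13.34 and 13.38 on day 3 (probe set 10411082). After that came 13.51 and 13.50 on day 5, 13.52 and 13.42 on day 7, 13.63 and 13.56 on day 10, and 13.69 and 13.71 on day 14. Day 14 held the highest arrays, but no pair of days from day 3 on was called, and its difference from day 3 was 0.35 ± 0.15 (adjusted p = 0.10). Thbs4 rose by 0.99 ± 0.15 on day 1 (1.99-fold, adjusted p = 0.00016) and by 1.99 ± 0.15 on day 14 (3.98-fold, adjusted p = 5.2e-07). The step from day 1 to day 3 was 0.65 ± 0.15 (adjusted p = 0.0049), and without the right pool of day 1 it was 0.50 (adjusted p = 0.055).

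**Figure D2:**
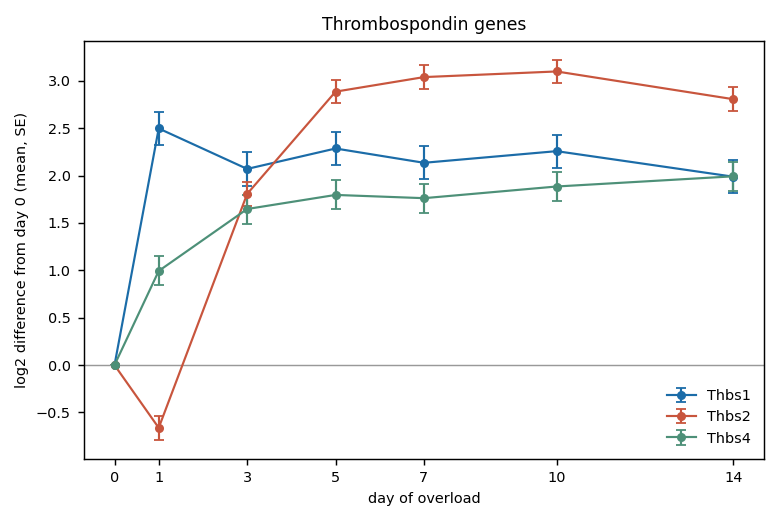
Mean log2 difference from day 0 (vertical axis, bars are standard errors of the fit) of Thbs1, Thbs2 and Thbs4 against day of overload, n = 2 arrays a day. Thbs1 is at its highest on day 1 at 2.50, when Thbs2 lies below day 0 at -0.66; from day 5 Thbs2 is the highest of the 3.

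Cthrc1 encodes a secreted glycoprotein first found in injured arteries. It had the largest rise of the 9 genes. Its day 0 mean of 7.64 lay below the median over all genes on the day 0 arrays (8.29 left and 8.25 right), and detection calls were not used. How far low signals, or signals near the top of the range as in Sparc, limit the ranking of rises was not tested. The pools read 7.68 and 7.61 at day 0, 8.89 and 8.58 on day 1, and 11.01 and 11.37 on day 3 (probe set 10423836). They then read 12.14 and 12.06 on day 5, 12.30 and 12.36 on day 7, 12.56 and 12.47 on day 10, and 12.25 and 12.14 on day 14. The day 0 pools differed by less than 0.1, so each later day stood far outside their gap. Cthrc1 rose by 1.09 ± 0.12 on day 1 (2.13-fold, adjusted p = 9.8e-06), 3.55 ± 0.12 on day 3 (11.7-fold) and 4.87 ± 0.12 on day 10 (29.3-fold, adjusted p = 1.1e-10). It was the third largest rise of all genes on day 10 and between the third and the fifth on days 5 to 14. The increase of 0.42 ± 0.12 from day 5 to day 10 (adjusted p = 0.041) was not called without any one array of those days (adjusted p = 0.096 to 0.229) or with all probe sets tested (adjusted p = 0.10). The difference of -0.33 ± 0.12 between days 14 and 10 was not called (adjusted p = 0.11).

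Lrrc15 encodes a membrane protein with leucine-rich repeats that TGF-β induces in fibroblasts. It rose late. The day 0 pools read 7.34 on the left and 7.87 on the right, and the day 1 pools, at 7.86 and 7.76, lay between them (probe set 10438904). Signals were 8.86 and 9.10 on day 3, 10.91 and 11.03 on day 5, 11.36 and 11.50 on day 7, 11.74 and 11.74 on day 10, and 11.01 and 11.06 on day 14. The day 1 difference of 0.21 ± 0.14 was not called (adjusted p = 0.26), though it was without the right pool of day 0 (0.47, adjusted p = 0.0061). The rise was 1.37 ± 0.14 by day 3 (2.59-fold, adjusted p = 3.9e-06), and the step from day 3 to day 5 added 1.99 ± 0.14 (adjusted p = 1.3e-05). A further 0.77 ± 0.14 was added from day 5 to day 10 (adjusted p = 0.0046), when Lrrc15 stood 4.14 ± 0.14 above day 0 (17.6-fold, adjusted p = 5.8e-10). It fell by 0.71 ± 0.14 from day 10 to day 14 (adjusted p = 0.012). This call was lost without either array of day 10 or the left array of day 14 (adjusted p = 0.063 to 0.083).

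The genes differed most in how much of their rise was in place on day 1. As a share of each gene's largest mean log2 rise, Thbs1 had reached 100%, Fn1 60.3%, Tnc 57.2% and Thbs4 49.9%. The share was 22.4% for Cthrc1, 14.4% for Sparc, 14.3% for Postn, 5.03% for Lrrc15 and -21.4% for Thbs2. On day 3 Lrrc15 stood at 33.2% and Thbs2 at 58.3%, while the other genes lay between 72.8% and 85.2%. These shares are descriptive and carry no test, and the low ones on day 1 have no firm order. With 1 array left out, the day 1 difference ranged from 0.10 to 0.36 in Sparc, from 0.24 to 0.97 in Postn and from -0.06 to 0.47 in Lrrc15.

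Between successive days, 8 of the 9 genes rose from day 1 to day 3, against 19.5% of all genes. The exception was Thbs1, whose difference of -0.43 ± 0.18 was not called (adjusted p = 0.066); it was called a fall after quantile normalization (adjusted p = 0.029) and with equal array medians (adjusted p = 0.029). From day 3 to day 5 Postn, Thbs2, Cthrc1 and Lrrc15 rose, 4 of 9 against 4.68% of all genes. Tnc and Fn1 missed the threshold there at adjusted p = 0.052 and 0.057. They were called with array weights (adjusted p = 0.020 and 0.028) and with the genes of lowest signal left out (adjusted p = 0.034 and 0.035). None of the 9 was called by limma from day 5 to day 7, when 1.03% of all genes were called in either direction, nor from day 7 to day 10, when 1.94% were; 1 gene had an unadjusted p under 0.05 in each step. From day 10 to day 14 Tnc and Lrrc15 fell, 2 of 9 against 5.11% of all genes called lower, with the limits given above.

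**Figure D3:**
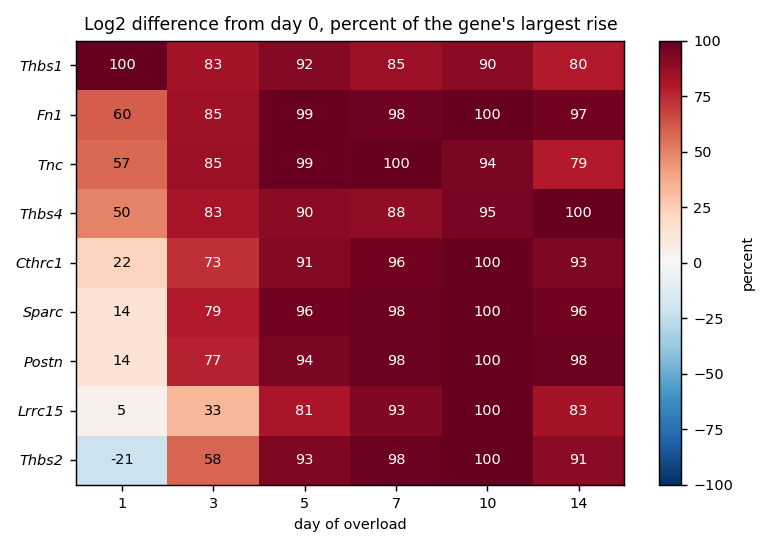
Each cell gives a gene's mean log2 difference from day 0 on a day as a percent of its largest such rise; rows are genes ordered by the share on day 1, columns are days of overload. Thbs1 is at 100% on day 1, Lrrc15 at 5.03% and Thbs2 below 0.

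At day 0 the left pool was higher than the right in 8 of the 9 genes. The gap was 0.74 in Thbs1, 0.67 in Tnc and 0.60 in Thbs4, with a median of 0.41, and Lrrc15 was the exception at -0.53. Over all genes the median gap was 0.00 and 50.4% were higher on the left. On day 1 the left pool was higher in 7 of the 9 and in 47.6% of all genes, with the widest gap among the 9, 0.73, in Postn. From day 5 on, no gap among the 9 exceeded 0.14. Some markers also differed between the day 0 pools. The mean log2 signal of the 12 macrophage markers was 8.84 in the left and 8.53 in the right pool. It was 9.83 and 9.38 for the 6 tendon, 9.20 and 8.64 for the 8 neutrophil and 9.83 and 9.08 for the 6 measured platelet markers. The gap was narrower in bone and cartilage (8.06 and 7.89), fibroblast (10.90 and 10.83), endothelial (10.51 and 10.47) and smooth muscle and pericyte markers (10.68 and 10.61). Muscle fibre markers were lower on the left (13.89 and 13.93). On day 1 macrophage (10.57 and 10.68) and tendon markers (8.41 and 8.46) were lower on the left. Endothelial (10.15 and 9.90), smooth muscle and pericyte (9.87 and 9.78) and neutrophil markers (11.32 and 11.23) were higher there. Fibroblast (10.50 and 10.52), platelet (10.00 and 10.03), bone and cartilage (7.78 and 7.81) and muscle fibre markers (13.61 and 13.60) differed less. The part of any marker in the gap was not tested. Over all 7 days, limma with the day as a block called none of the 9 genes, and 0% of all genes, between right and left, and none of the 9 had an unadjusted p under 0.05.

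Related genes were followed through lists drawn up by function. Of 20 other matricellular genes, 3 rose and 7 fell on day 1, 10 rose and 5 fell on day 3, and 13 rose and 2 fell on day 14. Their median difference from day 0 was 0.01 on day 1 and at most 0.95, on day 10, below the 3.10 of the 9 genes. Both sets were chosen with earlier results of these data known, and the contrast between them was not tested. The largest rises were those of Tnn, which encodes tenascin-N (also called tenascin-W), by 2.88 ± 0.15 on day 10; Ccn4, a WNT-induced CCN family gene, by 2.76 ± 0.10 on day 10; and Spon2, which encodes spondin-2, by 2.73 ± 0.17 on day 14.

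Among 18 genes of receptors for these proteins, 10 rose and 4 fell on day 1, 14 rose and 3 fell on day 5, and 12 rose and 2 fell on day 14. The median lay between 0.31 and 0.83. Stab1, the macrophage scavenger receptor that takes up SPARC, rose by 2.84 ± 0.07 on day 3. Itga5, the α subunit of the main fibronectin receptor, rose by 2.75 ± 0.08 on day 5, and Cd44, which binds hyaluronan and osteopontin, by 2.67 ± 0.12 on day 1. The thrombospondin receptors differed in direction: Cd36 fell on all 6 days, most on day 10 by 1.18 ± 0.07, and Cd47 rose on all 6, by 0.37 ± 0.12 to 0.82 ± 0.12. Both were singled out after their values were seen, as ligand partners of Thbs1 and Thbs2.

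Of 19 measured fibroblast activation genes, 9 rose and 5 fell on day 1, 17 rose on day 3, and all 19 rose on days 5, 7, 10 and 14. The median was 0.21 on day 1, 1.94 on day 3 and between 2.48 and 2.59 afterwards. Col12a1, a collagen that sits on the surface of collagen I fibrils, rose by 3.95 ± 0.20 on day 10, Col8a1, a short-chain collagen, by 3.52 ± 0.09 on day 14, and Adam12, a metalloprotease of activated mesenchymal cells, by 3.30 ± 0.09 on day 10. The 16 measured genes of matrix processing and assembly had more rises on day 1: 13 rose and 1 fell on day 1, and all 16 rose on days 3 and 5, with a median of 1.23 on day 1 and at most 1.72, on day 7. Mmp3, which encodes stromelysin-1, rose by 3.80 ± 0.17 on day 1, Lox, the collagen crosslinking enzyme, by 4.28 ± 0.17 on day 5, and Mmp14, a membrane-bound collagenase that stands in both of these lists, by 3.21 ± 0.09 on day 10.

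The 24 regulators of TGF-β and mechanical signalling had no common direction: 11 rose and 7 fell on day 1, and 11 rose and 3 fell on day 14, with a median between 0.09 and 0.27. Ankrd1, a stretch-responsive target of YAP, rose by 3.40 ± 0.20 on day 1. Fosl1, which encodes an AP-1 subunit, rose by 3.09 ± 0.14 on day 1, and Snai2, a transcription factor of mesenchymal cells, by 2.05 ± 0.12 on day 10.

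**Figure D4:**
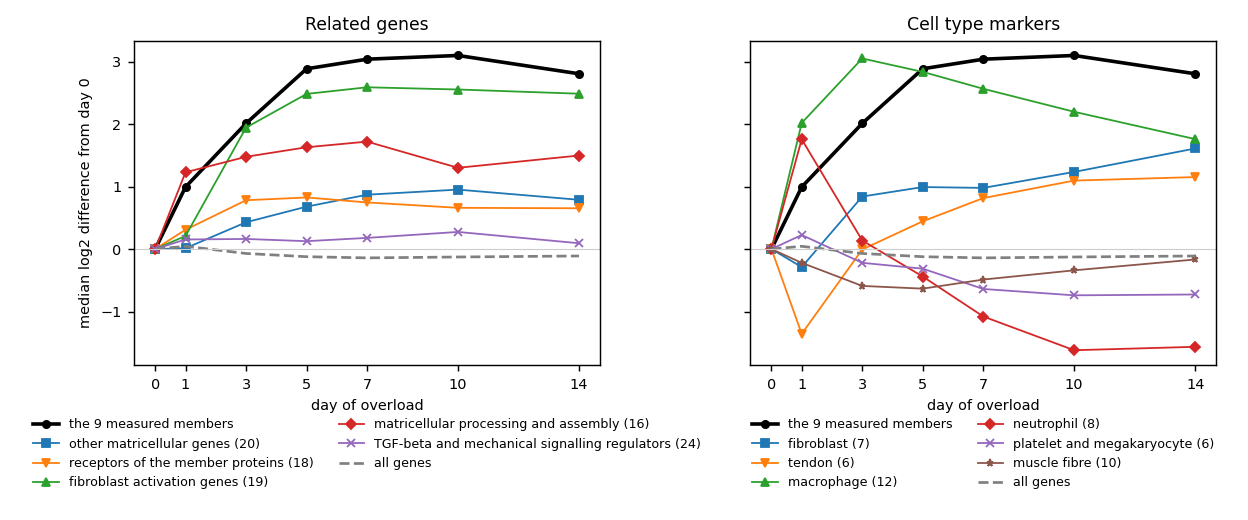
Median log2 difference from day 0 of gene lists against day of overload, with the number of measured genes in brackets; related genes are on the left, cell type markers on the right, and the dashed line is the median of all genes. The 9 genes lie above the fibroblast markers on every day, with medians of 3.10 and 1.23 on day 10. On day 1 macrophage markers (2.02), neutrophil markers (1.76) and matrix processing genes (1.23) lie above the 9 genes (0.99). On day 3 macrophage markers do so again (3.05 against 2.01).

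Cell type markers moved over the same days. Macrophage markers rose in 11 of 12 genes on day 1 and in all 12 from day 3, with a median of 2.02 on day 1, 3.05 on day 3 and 1.76 on day 14. Their mean log2 signal was 8.53 and 8.84 in the day 0 pools and 11.7 in both pools of day 3. Neutrophil markers rose in 8 of 8 genes on day 1, with a median of 1.76, and their mean signal that day was 11.2 and 11.3 against 8.64 and 9.20 at day 0. By day 14 none was called higher and 6 were lower. On day 1 Thbs1, Fn1 and Tnc had already reached 57.2% or more of their largest rise.

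Fibroblast markers rose in 2 of 7 genes and fell in 4 on day 1, and rose in 5 on day 3 and in all 7 on day 14, when the median was 1.61. Their mean log2 signal was 10.8 and 10.9 in the day 0 pools, 10.5 in both pools of day 1 and 12.6 and 12.7 on day 14. Tendon markers fell in 5 of 6 genes on day 1, with a median of -1.36, and rose in 5 of 6 on day 14, with a median of 1.15. Their mean signal was 8.41 and 8.46 on day 1 and 11.00 and 11.13 on day 14. Tnmd, which encodes the tendon protein tenomodulin, fell by 1.62 ± 0.16 on day 1 and had risen by 3.23 ± 0.16 on day 14. On day 1, when most tendon markers fell, Thbs2 fell by 0.66 ± 0.12 and Thbs4 rose by 0.99 ± 0.15. Of 6 measured platelet markers, 2 rose on day 1, 2 rose and 2 fell on day 3, with a median of -0.22, and 1 rose and 4 fell on day 14. Pf4, one of those that rose on day 3, did so by 2.91 ± 0.17. No marker is at 0 on these arrays, whose lowest value was 2.35, and the part of any cell type in the changes of the 9 genes was not tested.

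On day 1, 5 of 8 endothelial and 6 of 8 smooth muscle and pericyte markers fell, with medians of -0.52 and -0.90. None of the 6 measured bone and cartilage markers was called that day. Only Acan, which encodes the cartilage proteoglycan aggrecan, rose among them on day 14, by 2.76 ± 0.20.

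The genes whose signals ran most closely with each of the 9, by Pearson's r over the 14 arrays, were as follows. Cthrc1 was closest to Loxl1, a lysyl oxidase (0.997), and Thbs2 to Adamts12, a metalloprotease (0.997). Postn and Sparc were both closest to Crtap, a collagen prolyl hydroxylase complex gene (0.996 each). Tnc was closest to Actn1, a cytoskeletal actinin (0.996), Lrrc15 to Grb10, an adaptor of insulin signalling (0.994), and Fn1 to Zdhhc20, a palmitoyltransferase (0.993). Thbs1 was closest to Lpcat2, a phospholipid enzyme (0.991), and Thbs4 to Eif2ak3, the PERK kinase of the endoplasmic reticulum stress response (0.986). Such values are common here, since the arrays share 7 days: 458 genes exceeded 0.95 with Thbs2, 50 with Thbs1 and 81 with Thbs4. They are descriptions and carry no test.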

How the data were processed

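The values used are log2 signals per probe set, deposited by the authors as 1 table for the 14 arrays; Partek is named, without a version, per the submitters' processing notes. How they were normalized is not stated in the labels or the table, and detection calls were not used here. The precision rests on 2 arrays a day and on a spread estimated from all 14 arrays. The RNA input is unclear: the design text has 100 ng, the labelling protocol 250 ng.

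Of 35557 probe sets, 21789 carried 1 gene symbol, 1621 several and 12147 none. Probe sets with 1 symbol were used, the brightest where a gene had several, which gave 19938 genes with no filter on low values. limma 3.58.1 in R 4.3.3 was fitted to all arrays with the day as group (7 residual degrees of freedom), and a second fit compared the sides within days. All p-values are two-sided and adjusted over all genes for each comparison. The fit was tested on simulated data.

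The 10 genes, the 5 related lists and the 9 marker lists were chosen with earlier results of these data known. All measured members are named, then from each related list the 3 genes that changed most among its called ones. Of the 3 genes outside the members that were most like each member, the first is named. Cd36, Cd47, Tnmd, Pf4, Acan and the genes of the closing section were named after their values were seen. Of the listed genes, Loxl2, Ly6a, Gp1ba, Gp6 and Bglap had no probe set with 1 symbol. Mmp14, Col1a1, Col3a1, Pdgfra, Acta2, Tagln and Scx stand in more than one list. Promoter windows are those of RefSeq (GRCm38.p6), cut to the 250 bases before the start.

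The alternatives covered normalization (quantile, or equal medians of the arrays), genes (leaving out the dimmest 25%, averaging a gene's probe sets, or testing all probe sets), the model (an intensity trend with robust variances, weights per array, side as a replicate block), thresholds, and arrays (only the 4 of a comparison, or all but 1). Their use on differences between later days was added after the data were seen.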

Additional observations from a re-analysis of the deposited data

How the results depend on the processing

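On days 3, 5, 7, 10 and 14 all 9 genes were higher than on day 0 under every alternative run. On day 1 between 5 and 7 of them were called higher with 1 array left out, 7 after quantile normalization, 5 at an adjusted p under 0.01, and 4 when a 2-fold rise was also asked for. Of 54 differences from day 0 and 32 between later days, 74 kept their direction and call under every alternative run on them. For these differences, only arrays of the 2 days compared were left out in turn. The others are given in the report, apart from the following. With an intensity trend the day 1 difference of Sparc (adjusted p = 0.032) and the day 3 to 5 step of Fn1 (adjusted p = 0.022) were called. That step of Postn was not called (adjusted p = 0.070, and 0.099 with all probe sets). With only the 4 arrays of days 0 and 1, the Postn difference of 0.61 was not called (adjusted p = 0.10). No difference reversed where it was called. Equal array medians lowered the median of all genes to between -0.29 and 0.01, and moved no member by more than 0.14; quantile normalization moved none by more than 0.18. With the side as a replicate block no call of the 9 genes changed: the numbers called higher on day 1 and day 3 were again 6 and 9. The labels give sides and no replicate numbers. Right minus left differences over all genes correlated between days at -0.19 to 0.35, with a median of 0.07. These values do not settle whether arrays of 1 side share a component across days. They also cannot show whether the 2 pools of a day share animals. No depth can be given for arrays.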

Other observations

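Matricellular genes outside the 9 followed both early and late courses. Ccn1, an immediate early CCN family gene, rose by 1.50 ± 0.08 on day 1 and was still 0.81 ± 0.08 above day 0 on day 14, and Tgfbi, a TGF-β-induced adhesion protein gene, rose by 1.95 ± 0.11 on day 1 and 2.35 ± 0.11 on day 3. Ccn3 fell by 1.61 ± 0.17 on day 1 and was 2.35 ± 0.17 above day 0 on day 14. Sparcl1, the closest relative of Sparc, fell by 1.69 ± 0.08 on day 1, then exceeded its day 0 signal by 0.49 ± 0.08 on day 14.

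The other thrombospondin genes were highest on day 14. Thbs3 differed from day 0 by -0.02 ± 0.10 on day 1 (not called) and rose by 2.43 ± 0.10 on day 14. Comp, which encodes the cartilage oligomeric matrix protein and is also known as thrombospondin-5, fell by 0.93 ± 0.18 on day 1 and rose by 1.37 ± 0.18 on day 14. Spon1, which encodes the related spondin-1, rose by 2.45 ± 0.14 on day 14. Tnxb, which encodes tenascin-X, fell by 1.08 ± 0.21 on day 1 and differed by 0.12 ± 0.21 on day 14 (not called). These genes were picked from their list after their values were seen, and differences between genes were not tested.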
